A study of Homo sapiens with 6 samples.

Results

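Cells copy their genome with a fixed set of enzymes, and the genes for 45 of these factors, from nucleotide supply to chromatin assembly, are described here in LX2 cells depleted of SHMT2. The members were taken by gene symbol from a list of replication and nucleotide-reduction genes, and all 45 were found among the 60623 genes of the deposited expression table. LX2 is an established human hepatic stellate cell line, so the data come from 1 line. Cells in the siSHMT2 group carried an siRNA against SHMT2 (genotype given as SHMT2 knockdown, 3 libraries), and cells in the siNC group carried a control siRNA (genotype given as WT, 3 libraries). Both groups were kept in DMEM with 2% fetal bovine serum and antibiotics and were transfected for 36 h. Whether the 3 libraries of a group are separate cultures is not in the labels, and p-values therefore cover only the spread between libraries, which may be technical.

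Before S phase, the origin recognition complex with CDC6 and CDT1 loads the MCM2 to MCM7 helicase onto origins. CDC45 and the GINS complex then turn it into the active helicase, primase and the polymerases copy the strands, and chromatin assembly factor 1 places histones on the new DNA. Ribonucleotide reductase makes the deoxynucleotides, and most of these genes are transcribed around S phase under E2F factors. SHMT2, the mitochondrial serine hydroxymethyltransferase, feeds the folate pool whose one-carbon units are used to make purines and thymidylate.

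The libraries held 14722344 to 15669139 reads, recovered from the FPKM values (fragments per kilobase of gene length, scaled to the library total). The siNC library of replicate 2 had 18723 genes above 0, against 20559 to 21136 in the other libraries. SHMT2 itself was 2.25, 2.10 and 2.42 FPKM in the siSHMT2 libraries and 40.8, 56.3 and 45.1 FPKM in the siNC libraries (log2 fold change -3.88, limma adjusted p = 2.08e-05; exact permutation p = 0.1, two-sided, the smallest that 3 against 3 allows). Of 13 stellate cell markers, 11 were at 1 FPKM or more in every library, while ACTA2 and DES were below 1 FPKM in every library. Of the other lists, 7 of 8 hepatocyte, 6 of 7 macrophage and leukocyte, 6 of 6 endothelial and 3 of 5 cholangiocyte and epithelial markers were below 1 FPKM in every library. The exceptions were SERPINA1 (up to 1.06 FPKM), CD14 (13.0 to 18.7 FPKM), SOX9 (6.31 to 9.45 FPKM) and KRT7 (1.21 to 2.65 FPKM). The summed stellate markers ran from 1579 to 1819 FPKM in siSHMT2 and from 2063 to 3014 FPKM in siNC, a sum made up mostly of TIMP1 and VIM. Of the 13, only VIM, COL6A1 and COL6A2 had groups that did not overlap, all lower in siSHMT2. The summed cholangiocyte and epithelial markers ran from 8.72 to 9.66 FPKM in siSHMT2 and from 9.82 to 11.2 FPKM in siNC, and the sums of the remaining lists overlapped. The part of these markers in the results was not tested.

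Most transcripts of the replication machinery differed little between siSHMT2 and siNC cells, and 3 passed the test. RRM2, the small subunit of ribonucleotide reductase, fell to 34.3% of its siNC mean, and CDC6, the helicase loader, fell to 67.3%. CHAF1B, a subunit of chromatin assembly factor 1, rose to 152%. Of the 45 members, 44 had a mean of at least 1 FPKM over the 6 libraries and were tested. E2F2 was listed at 0 in every library. A gene was called when its adjusted p was below 0.05 (limma on log2(FPKM + 1), Benjamini-Hochberg adjustment over all 10865 genes tested), and fold changes below are differences on that scale, where low genes show less than their true fold. Among the 44 members, 1 was called higher and 2 lower, and the same 3 genes were called without the siNC library of replicate 2. Over all tested genes 15.9% were called, 6.07% higher and 9.85% lower, so the 3 calls (6.82% of members) were below the background share. The roles described below hold 8 or fewer tested genes each, so their counts of calls are too small to be set apart from this share. The median log2 fold change was 0.04 for the members and 0.02 for all tested genes. An absolute log2 fold change below 0.25 was found in 31 of the 44 members (70.5%) and in 59.3% of all tested genes.

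For the 41 members not called, log2 fold changes ran from -0.25 to 0.43. A p that misses the threshold does not show that levels were equal, so the intervals matter: the 95% interval lay within a 2-fold change either way for all 41, and within a 1.5-fold change for 35. The 6 that reached past 1.5-fold were RFC2, GINS2, GMNN, ORC6, MCM2 and GINS4. With a pseudocount of 0.1, 39 intervals lay within 2-fold and 30 within 1.5-fold, MCM2 and GINS4 being the pair beyond 2-fold. At an unadjusted p below 0.05 there were 10 of 44 members, 8 higher and 2 lower. Over all 10865 tested genes the share was 30.3%, with 1547 higher and 1740 lower. The libraries of the groups did not overlap for 15 members (34.1%), 11 higher and 4 lower in siSHMT2. Over all tested genes the groups did not overlap for 36.4% (17.9% higher and 18.6% lower), so the total of 15 was near the background. By direction the members leaned to higher in both counts, where all tested genes were closer to even. Whether these splits differ was not tested. In a bulk culture, fewer cells in S phase and less of an mRNA per cell cannot be told apart.

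**Figure D1:**
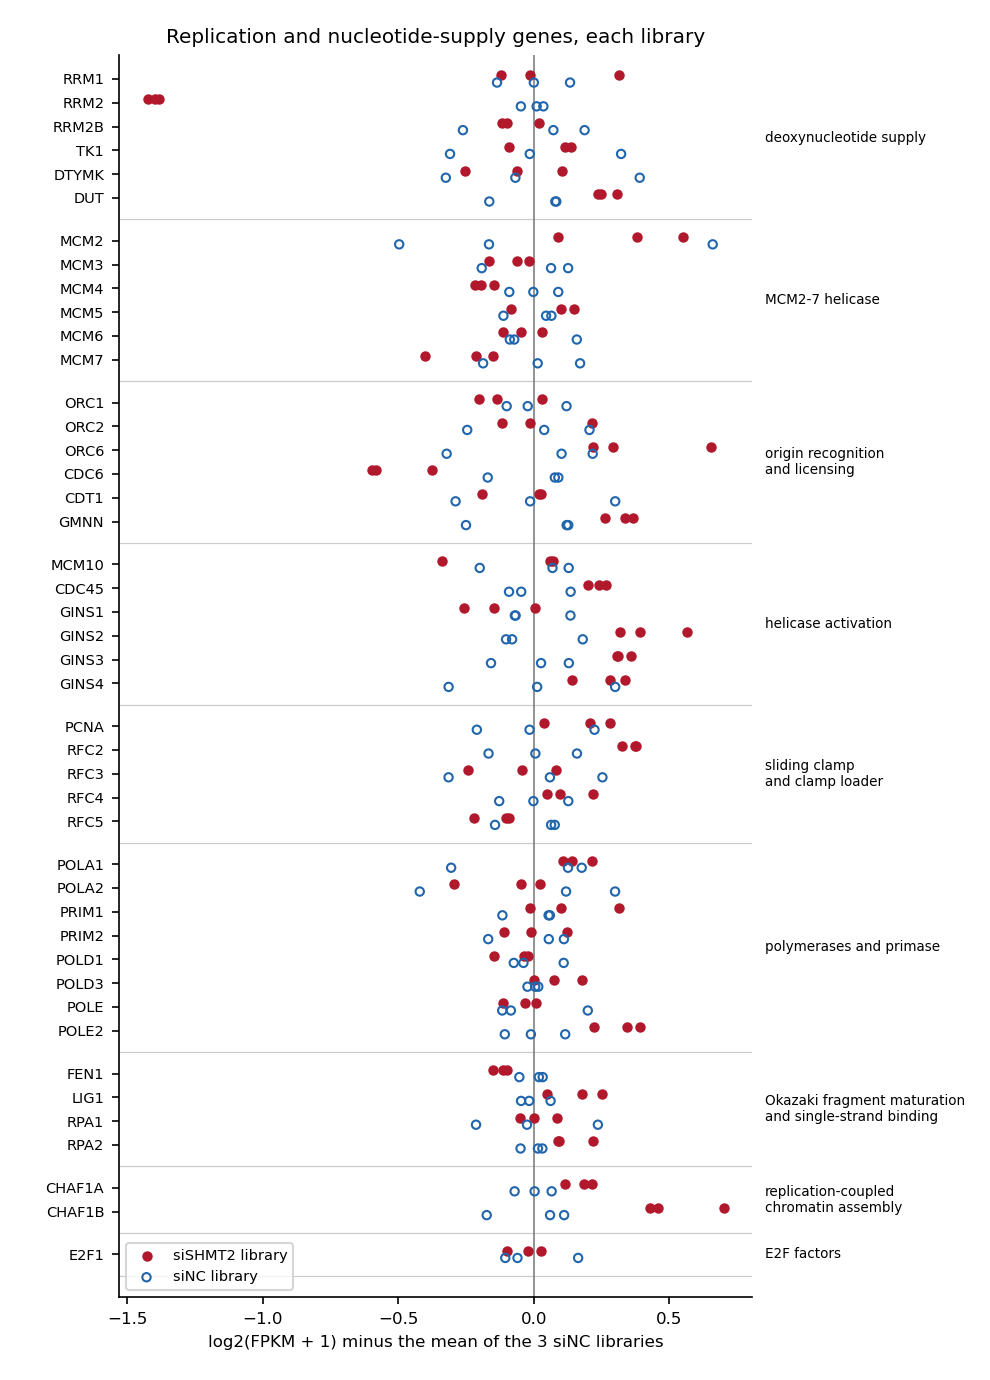
Each row is 1 of the 44 tested members and each point 1 library, placed by log2(FPKM + 1) minus the mean of the 3 siNC libraries (filled, siSHMT2; open, siNC). RRM2 stands alone at about -1.40, CDC6 lies left of its siNC points and CHAF1B right of them, while the other rows lie between -0.25 and 0.43 on average.

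The supply of deoxynucleotides held the largest change. Ribonucleotide reductase joins a large catalytic subunit, RRM1, to a small subunit that carries the radical, either the S-phase RRM2 or RRM2B, which p53 induces and which serves cells outside S phase. RRM2 was 6.09, 6.17 and 5.96 FPKM in the siSHMT2 libraries and 18.1, 17.8 and 17.1 FPKM in the siNC libraries. All 3 siSHMT2 libraries were below the lowest siNC library (log2 fold change -1.40, SE 0.0863, limma adjusted p = 0.000151). These values came from 894, 936 and 862 reads in siSHMT2 and 2907, 2364 and 2461 reads in siNC. RRM2 ranked 19 of 10865 tested genes by p, and its spread was small in both groups (SD 0.107 FPKM in siSHMT2 and 0.549 FPKM in siNC, n = 3 each). The partner subunit RRM1 was 18.7, 23.7 and 17.2 FPKM in the siSHMT2 libraries and 20.8, 18.9 and 17.1 FPKM in the siNC libraries, with overlapping groups (adjusted p = 0.812, limma). RRM2B was 1.97, 2.22 and 1.93 FPKM in the siSHMT2 libraries and 2.62, 2.34 and 1.65 FPKM in the siNC libraries, again overlapping (adjusted p = 0.791, limma), and the 95% intervals of the log2 fold change were -0.26 to 0.39 for RRM1 and -0.38 to 0.25 for RRM2B.

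Subunit ratios were taken per library, as a description with no test. The ratio of RRM2 to RRM1 in FPKM was 0.326, 0.260 and 0.345 in siSHMT2 and 0.873, 0.945 and 0.9999 in siNC. RRM2 to RRM2B gave 3.10, 2.78 and 3.09 in siSHMT2 and 6.94, 7.62 and 10.4 in siNC, whereas RRM2B to RRM1 gave 0.105, 0.0935 and 0.112 in siSHMT2 and 0.126, 0.124 and 0.0965 in siNC. Both ratios with RRM2 were lower in every siSHMT2 library than in any siNC library, and the ratio without it overlapped. The sizes of these ratios depend on gene length: the table gives RRM2 9155 exonic bases between 10120698 and 10211725 on chromosome 2, an interval that ends beyond the 10131419 of GENCODE release 29 (GRCh38), so its FPKM is per a longer gene model, the same in both groups.

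**Figure D2:**
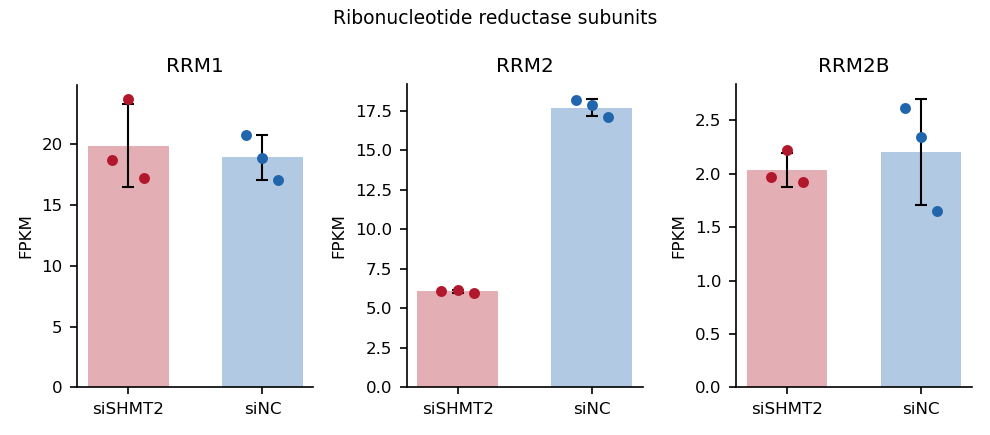
FPKM of RRM1, RRM2 and RRM2B, with points for libraries, bars for group means and error bars for the SD (n = 3 each), each panel on its own scale from 0. The RRM2 libraries lie at 5.96 to 6.17 FPKM in siSHMT2 and 17.1 to 18.1 FPKM in siNC, and the other subunits overlap.

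The remaining supply genes were not called. TK1, the cytosolic thymidine kinase of the salvage pathway, had the highest level of all members, at 390.2 ± 33.1 FPKM in siSHMT2 and 381 ± 83.8 FPKM in siNC (SD, n = 3 each; adjusted p = 0.876, limma). DTYMK, which phosphorylates thymidine monophosphate, averaged 40.5 ± 5.11 FPKM in siSHMT2 and 43.2 ± 11.4 FPKM in siNC (adjusted p = 0.842, limma). DUT, which hydrolyses dUTP and so keeps uracil out of DNA, was 39.1, 37.2 and 37.5 FPKM in the siSHMT2 libraries and 33.3, 27.9 and 33.2 FPKM in the siNC libraries. Its groups did not overlap, but the gene was not called (log2 fold change 0.26, limma adjusted p = 0.154). The role as a whole had 0 members called higher and 1 lower of 6, against 6.07% and 9.85% of all tested genes. Its median log2 fold change was -0.01.

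Because these genes are classed as E2F targets, the promoters of the 3 called members are shown as they stand in RefSeq (GRCh38.p14), from 250 bases before to 50 bases after the start. Capitals mark any of 4 words of the E2F consensus (TTTCCCGC, TTTCGCGC, TTTGCCGC or TTTGGCGC) and the word CCAAT, the core bound by NF-Y, on either strand; neighbouring words may overlap. RRM2 lies on the plus strand at chr2:10122489-10122788, CDC6 on the plus strand at chr17:40287629-40287928 and CHAF1B on the plus strand at chr21:36385142-36385441.

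RRM2: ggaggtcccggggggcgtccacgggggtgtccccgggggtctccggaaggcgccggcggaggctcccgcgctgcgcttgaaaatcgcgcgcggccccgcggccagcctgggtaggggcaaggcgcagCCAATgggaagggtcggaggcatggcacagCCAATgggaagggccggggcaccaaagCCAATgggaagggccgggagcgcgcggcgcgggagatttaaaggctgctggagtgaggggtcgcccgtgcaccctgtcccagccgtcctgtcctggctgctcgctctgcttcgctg

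CDC6: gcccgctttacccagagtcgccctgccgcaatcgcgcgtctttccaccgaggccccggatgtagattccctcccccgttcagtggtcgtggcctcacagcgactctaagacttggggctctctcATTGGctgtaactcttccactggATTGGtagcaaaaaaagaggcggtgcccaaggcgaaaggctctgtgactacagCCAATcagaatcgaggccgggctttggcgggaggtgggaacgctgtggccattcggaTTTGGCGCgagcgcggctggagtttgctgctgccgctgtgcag

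CHAF1B: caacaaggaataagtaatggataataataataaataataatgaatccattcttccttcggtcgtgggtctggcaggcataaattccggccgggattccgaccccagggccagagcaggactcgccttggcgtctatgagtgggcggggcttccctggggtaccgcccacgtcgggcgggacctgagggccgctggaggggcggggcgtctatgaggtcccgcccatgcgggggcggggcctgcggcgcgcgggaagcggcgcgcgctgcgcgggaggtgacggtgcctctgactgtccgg

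The RRM2 window held 0 E2F words and 3 CCAAT words, which begin 123, 93 and 66 bases before the start. The CDC6 window held 1 E2F word, beginning 7 bases after the start, and 3 CCAAT words. The CHAF1B window held neither. Of the 45 members, 39 matched a promoter; RRM2B, MCM4, MCM5, GINS4, POLD3 and RPA2 did not. An E2F word stood in 18 of the 39 (46.2%), against 5.80% of the 7930 promoters of tested genes and 3.33% of all 27305 promoters of that length. A match only says that the letters are there, and a window without one says nothing about binding. For comparison, the stretch from 60 bases before to 19 bases after the start is shown for 6 members that hold a word and were not called. These stretches lie in the RefSeq windows of PCNA at chr20:5126573-5126872 on the minus strand, MCM7 at chr7:100101348-100101647 on the minus strand, POLE2 at chr14:49688165-49688464 on the minus strand, E2F1 at chr20:33686336-33686635 on the minus strand, RFC3 at chr13:33817899-33818198 on the plus strand and GINS2 at chr16:85688905-85689204 on the minus strand, each read along its gene.

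PCNA: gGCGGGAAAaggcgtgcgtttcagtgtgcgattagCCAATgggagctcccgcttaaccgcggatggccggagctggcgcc

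MCM7: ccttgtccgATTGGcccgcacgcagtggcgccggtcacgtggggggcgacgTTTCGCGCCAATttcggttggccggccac

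POLE2: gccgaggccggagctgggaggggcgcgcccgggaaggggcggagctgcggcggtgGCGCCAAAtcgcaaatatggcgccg

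E2F1: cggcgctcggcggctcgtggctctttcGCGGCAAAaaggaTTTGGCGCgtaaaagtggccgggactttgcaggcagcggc

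RFC3: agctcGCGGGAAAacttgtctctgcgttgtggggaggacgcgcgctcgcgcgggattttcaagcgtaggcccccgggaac

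GINS2: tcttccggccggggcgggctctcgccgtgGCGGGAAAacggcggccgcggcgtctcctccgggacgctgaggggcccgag

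Fold changes are given by the words held, with no test. The 17 tested members with an E2F word had log2 fold changes from -0.52 (CDC6) to 0.43 (GINS2), with a median of -0.04. The 21 without one ran from -1.40 (RRM2) to 0.53 (CHAF1B), with a median of 0.05. The 22 with CCAAT, RRM2 and CDC6 among them, ran from -1.40 to 0.43 with a median of -0.04, and the 16 without it from -0.12 to 0.53 with a median of 0.14. Over all tested genes the median was 0.02 with CCAAT and 0.02 without it. E2F1, an activator of S-phase genes, was 77.8, 82.0 and 84.9 FPKM in the siSHMT2 libraries and 77.3, 93.4 and 79.8 FPKM in the siNC libraries, at overlapping levels (adjusted p = 0.899, limma, and a 95% interval of -0.31 to 0.25).

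Origin licensing held the second fall. CDC6 is the ATPase that, with CDT1, loads the helicase onto the origin recognition complex. CDC6 was 7.68, 9.14 and 7.78 FPKM in the siSHMT2 libraries and 12.9, 13.0 and 10.7 FPKM in the siNC libraries, so that every siSHMT2 library was below every siNC library (log2 fold change -0.52, SE 0.116, limma adjusted p = 0.0217). The call was lost without siSHMT2 replicate 1 (adjusted p = 0.109, limma) or siSHMT2 replicate 3 (0.0935), and when values were rescaled to TPM (0.119), when FPKM was recomputed from read sums (0.0640) or without a filter on low genes (0.0665). The log2 fold change was -0.45 to -0.52 in these. CDT1, its partner, was 42.2, 36.3 and 42.4 FPKM in the siSHMT2 libraries and 33.9, 51.4 and 41.2 FPKM in the siNC libraries, with overlapping groups (adjusted p = 0.873, limma). GMNN (geminin), the protein that binds CDT1 and blocks relicensing, was 29.7, 31.9 and 31.2 FPKM in the siSHMT2 libraries and 26.8, 20.5 and 26.9 FPKM in the siNC libraries. Its siSHMT2 libraries were all higher than its siNC libraries, without a call (log2 fold change 0.32, limma adjusted p = 0.139).

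The origin recognition subunits ORC1, ORC2 and ORC6 were not called. ORC1 was 9.27, 8.15 and 7.74 FPKM in the siSHMT2 libraries and 8.90, 8.38 and 9.93 FPKM in the siNC libraries, overlapping between groups, and ORC2 was 4.17, 5.07 and 3.82 FPKM in the siSHMT2 libraries and 5.03, 3.41 and 4.37 FPKM in the siNC libraries, overlapping too (limma adjusted p = 0.571 and 0.921). ORC6 was 8.24, 11.5 and 8.72 FPKM in the siSHMT2 libraries and 7.52, 5.35 and 8.23 FPKM in the siNC libraries. The lowest siSHMT2 value was just above the highest siNC value, and the gene was not called (log2 fold change 0.39, 95% interval -0.01 to 0.79, limma adjusted p = 0.177). Of the 6 licensing genes, 0 were called higher and 1 lower, against 6.07% and 9.85% of all tested genes. Their median log2 fold change was -0.01.

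The helicase core, a ring of the 6 subunits MCM2 to MCM7, had 0 of 6 members called, against 15.9% of all tested genes. Its median log2 fold change was -0.06 (4 of 6 negative). MCM4, which had the smallest adjusted p of the ring, was 24.4, 25.6 and 24.7 FPKM in the siSHMT2 libraries and 30.3, 26.6 and 28.4 FPKM in the siNC libraries. All its siSHMT2 values lay below its siNC values, by a small margin (log2 fold change -0.19, 95% interval -0.41 to 0.04, limma adjusted p = 0.259). With array weights MCM4 was called lower (log2 fold change -0.20, limma adjusted p = 0.0373). That setting called 1827 genes higher and 1976 lower over all tested genes, against 659 and 1070 as reported. Its weights ran from 0.263 (siNC replicate 2) to 4.94 (siSHMT2 replicate 1), so calls from it rest mainly on some libraries. MCM7 was 119, 104 and 124 FPKM in the siSHMT2 libraries and 121, 155 and 139 FPKM in the siNC libraries, with overlap (adjusted p = 0.277, limma). Reads of MCM7 cannot be told apart from those of AP4M1, on the other strand, and of the 3 tested microRNA genes inside it. MCM3, MCM5 and MCM6 overlapped between the groups as well. MCM3 averaged 50.5 ± 2.70 FPKM in siSHMT2 and 53.7 ± 6.21 FPKM in siNC, MCM5 42.2 ± 3.60 FPKM in siSHMT2 and 40.5 ± 2.74 FPKM in siNC and MCM6 12.4 ± 0.677 FPKM in siSHMT2 and 12.8 ± 1.36 FPKM in siNC (SD, n = 3 each; limma adjusted p = 0.704, 0.782 and 0.826).

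MCM2 varied most of all tested members among the siNC libraries (coefficient of variation 17.4% in siSHMT2 and 48.7% in siNC). It was 10.3, 11.7 and 8.21 FPKM in the siSHMT2 libraries and 12.7, 5.14 and 6.72 FPKM in the siNC libraries. The siNC library of replicate 1 was above every siSHMT2 library and the other siNC libraries were below all of them (limma adjusted p = 0.459). Without siNC replicate 1, MCM2 was called higher in siSHMT2 (log2 fold change 0.67, limma adjusted p = 0.0352), so that value rests on 1 library. Per length, the subunits were not equal: MCM7 was 11.5 times MCM2 in siSHMT2 and 16.9 times MCM2 in siNC, by group means. On the log2 FPKM scale, subunits were set against the mean of the 6. MCM6 was -1.33, -1.22 and -1.31 in siSHMT2 and -1.22, -1.27 and -1.29 in siNC, nearly level. MCM4 was -0.34, -0.25 and -0.24 in siSHMT2 and -0.14, -0.14 and -0.04 in siNC, lower in each siSHMT2 library. That mean includes MCM2 (-1.59, -1.38 and -1.83 in siSHMT2 and -1.40, -2.51 and -2.12 in siNC), whose swings shift the other values. A mean without MCM2 was not taken, so neither pattern is ascribed to MCM4 or MCM6 alone.

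None of the 6 helicase activation genes was called, against 15.9% of all tested genes. They had 4 positive log2 fold changes and a median of 0.25, against 0.02 over all tested genes, and 3 of the 6 did not overlap between groups, all higher in siSHMT2, where 17.9% of all tested genes were higher without overlap. GINS2 was 32.1, 30.5 and 36.4 FPKM in the siSHMT2 libraries and 22.5, 22.9 and 27.6 FPKM in the siNC libraries, the nearest to the threshold of all members that were not called (log2 fold change 0.43, SE 0.123, limma adjusted p = 0.0541). GINS2 passed the threshold in 7 of 16 alternative analyses, among them voom on recovered reads (adjusted p = 0.0376, limma) and protein-coding genes alone (0.0408). GINS3 was 3.78, 3.79 and 3.95 FPKM in the siSHMT2 libraries and 2.93, 2.46 and 3.22 FPKM in the siNC libraries, and CDC45, which joins GINS and MCM in the active helicase, was 18.4, 17.9 and 18.8 FPKM in the siSHMT2 libraries and 14.4, 14.9 and 17.0 FPKM in the siNC libraries. Both had every siSHMT2 library above every siNC library (log2 fold changes 0.33 and 0.24, limma adjusted p = 0.0759 and 0.162).

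The other GINS subunits had overlapping groups. GINS1 was 11.0, 12.4 and 10.2 FPKM in the siSHMT2 libraries and 13.6, 11.7 and 11.7 FPKM in the siNC libraries, and GINS4, a low gene, was 1.84, 1.74 and 1.49 FPKM in the siSHMT2 libraries and 1.77, 0.811 and 1.27 FPKM in the siNC libraries (limma adjusted p = 0.475 and 0.357). MCM10, which helps the helicase fire, was 2.17, 2.15 and 1.39 FPKM in the siSHMT2 libraries and 2.17, 2.30 and 1.63 FPKM in the siNC libraries, overlapping likewise (limma adjusted p = 0.802).

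The sliding clamp PCNA, a ring that tethers polymerases to DNA, was 255, 268 and 227 FPKM in the siSHMT2 libraries and 258, 190.4 and 218 FPKM in the siNC libraries. It was the second most abundant member by FPKM, and its groups overlapped (limma adjusted p = 0.493). Of the clamp loader subunits, RFC2 was 55.3, 53.5 and 55.6 FPKM in the siSHMT2 libraries and 37.8, 42.7 and 47.6 FPKM in the siNC libraries, higher in every siSHMT2 library but not called (log2 fold change 0.36, SE 0.118, limma adjusted p = 0.0792). RFC2 was called with TPM (0.0283), with FPKM from read sums (0.0263) and with array weights (0.0339; limma adjusted p in each). RFC3, RFC4 and RFC5 overlapped between groups. RFC3 averaged 11.9 ± 1.43 FPKM in siSHMT2 and 12.6 ± 2.63 FPKM in siNC, RFC4 16.7 ± 1.08 FPKM in siSHMT2 and 15.3 ± 1.44 FPKM in siNC and RFC5 9.83 ± 0.526 FPKM in siSHMT2 and 10.9 ± 0.997 FPKM in siNC (SD, n = 3 each; limma adjusted p = 0.816, 0.494 and 0.416). RFC4 overlaps EIF4A2 and RFC5 overlaps WSB2 on the opposite strand, and without known strand use in the counting their reads cannot be told apart. The same holds for CHAF1A with UBXN6, RPA1 with SMYD4 and POLA1 with the pseudogene EEF1B2P3. The 5 clamp and clamp loader genes had 0 calls, against 15.9% of all tested genes, and a median log2 fold change of 0.12.

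Polymerase and primase genes had 0 of 8 called, against 15.9% of all tested genes, and a median log2 fold change of 0.04. In 7 of 8 the size was below 0.25, against 59.3% of all tested genes. The exception was POLE2, the accessory subunit of the leading-strand polymerase epsilon, at 7.64, 7.94 and 6.96 FPKM in the siSHMT2 libraries and 6.38, 5.33 and 5.76 FPKM in the siNC libraries. Its groups did not overlap (log2 fold change 0.32, SE 0.101, limma adjusted p = 0.0709), and it was called without siNC replicate 1 (0.0460) and with array weights (0.00606). The catalytic subunit POLE was 6.98, 6.55 and 7.21 FPKM in the siSHMT2 libraries and 6.70, 8.37 and 6.53 FPKM in the siNC libraries, with overlap (limma adjusted p = 0.826). POLD1, the catalytic subunit of polymerase delta, averaged 17.4 ± 0.848 FPKM in siSHMT2 and 18.3 ± 1.33 FPKM in siNC, and its accessory subunit POLD3 6.11 ± 0.441 FPKM in siSHMT2 and 5.70 ± 0.0951 FPKM in siNC (SD, n = 3 each; limma adjusted p = 0.697 and 0.576).

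Priming begins with polymerase alpha and primase, and all 4 genes overlapped between groups. POLA1, the catalytic subunit, averaged 4.86 ± 0.225 FPKM in siSHMT2 and 4.31 ± 0.921 FPKM in siNC and POLA2 7.79 ± 0.984 FPKM in siSHMT2 and 8.62 ± 2.34 FPKM in siNC (SD, n = 3 each; limma adjusted p = 0.501 and 0.750). PRIM1, the catalytic primase subunit, was 2.01, 1.39 and 1.595 FPKM in the siSHMT2 libraries and 1.52, 1.23 and 1.51 FPKM in the siNC libraries, from as few as 51 reads a library, and it shares its locus with NACA, so its reads are uncertain. PRIM2, the large primase subunit, averaged 5.00 ± 0.482 FPKM in siSHMT2 and 5.00 ± 0.599 FPKM in siNC and had the smallest fold change of all members (95% interval -0.26 to 0.26).

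Lagging-strand maturation and single-strand binding had 0 of 4 called, against 15.9% of all tested genes. FEN1, the nuclease that trims flaps, was 121, 124 and 126 FPKM in the siSHMT2 libraries and 129, 138 and 136 FPKM in the siNC libraries. The values were lower in each siSHMT2 library by a small step (log2 fold change -0.12, 95% interval -0.37 to 0.13, limma adjusted p = 0.512), and FEN1 lies inside the interval of FADS2. LIG1, which seals the fragments, was 15.1, 13.0 and 14.3 FPKM in the siSHMT2 libraries and 12.4, 12.1 and 13.1 FPKM in the siNC libraries, with the groups overlapping (limma adjusted p = 0.321). RPA2, of the single-strand binding complex, was 36.2, 39.7 and 36.3 FPKM in the siSHMT2 libraries and 34.4, 32.8 and 34.8 FPKM in the siNC libraries, without overlap and without a call (limma adjusted p = 0.417). RPA1, its large subunit, averaged 29.9 ± 1.47 FPKM in siSHMT2 and 29.9 ± 4.88 FPKM in siNC (SD, n = 3 each; limma adjusted p = 0.963).

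Chromatin assembly factor 1 deposits histones H3 and H4 on newly copied DNA. Both of its members here were higher in every siSHMT2 library, as were 17.9% of all tested genes. CHAF1B, the middle subunit, was 10.5, 8.72 and 8.54 FPKM in the siSHMT2 libraries and 6.38, 6.65 and 5.28 FPKM in the siNC libraries, 1 of 659 tested genes called higher (log2 fold change 0.53, SE 0.121, limma adjusted p = 0.0236), from 860, 738 and 689 reads in siSHMT2 and 570, 492 and 424 reads in siNC. The call was lost without siSHMT2 replicate 1, 2 or 3 (limma adjusted p = 0.109, 0.0657 and 0.0587), without siNC replicate 3 (0.0652) and without a filter (0.0780). The log2 fold change was 0.44 to 0.58 in these.

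CHAF1B overlaps MORC3 on the same strand, and MORC3 averaged 1.97 FPKM in siSHMT2 and 2.03 FPKM in siNC (limma adjusted p = 0.938). CHAF1A, the large subunit, was 19.02, 19.99 and 20.5 FPKM in the siSHMT2 libraries and 16.6, 17.5 and 18.3 FPKM in the siNC libraries, not called (log2 fold change 0.17, limma adjusted p = 0.271). Whether the 2 subunits differ in response was not tested.

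**Figure D3:**
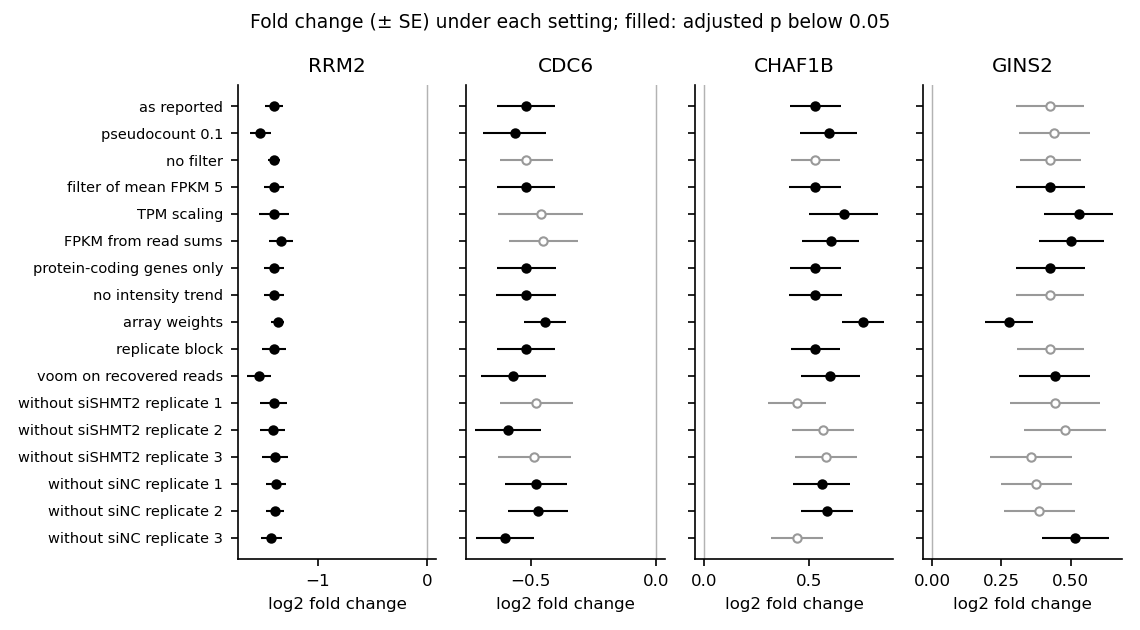
Log2 fold change (siSHMT2 over siNC) with its SE for RRM2, CDC6, CHAF1B and GINS2 as reported and under 16 alternative settings; filled points have an adjusted p below 0.05. RRM2 stays between -1.54 and -1.34 and is filled in every row, CDC6 and CHAF1B are open in 5 rows each, and GINS2 is filled in 7.

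RRM2 was called lower in all 16 alternative analyses (limma adjusted p = 3.96e-06 to 0.00289), CDC6 in 11 and CHAF1B, as higher, in 11. The plot of fold change by setting shows these values.

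Other genes of the pathway were counted in the same fit. Of 64 further replication, nucleotide and E2F genes, 57 were tested, 3 were called higher and 3 lower (10.5%, against 15.9% of all tested genes), with a median log2 fold change of -0.06. Over the alternatives 0 to 9 were called higher and 1 to 6 lower, and the median ran from -0.07 to 0.03, above 0 with TPM and with FPKM from read sums. DCK, the deoxycytidine kinase of nucleoside salvage, was 3.72, 3.67 and 3.404 FPKM in siSHMT2, against 10.4, 6.52 and 7.33 FPKM in siNC (log2 fold change -0.96, SE 0.155, limma adjusted p = 0.00603). DNMT1, the maintenance DNA methyltransferase, was 4.90, 5.12 and 4.75 FPKM in siSHMT2, against 12.2, 6.86 and 10.3 FPKM in siNC, and TOP2A, a topoisomerase of S phase and mitosis, was 16.1, 16.5 and 15.3 FPKM in siSHMT2, against 36.0, 21.1 and 26.7 FPKM in siNC (limma adjusted p = 0.0193 and 0.0301). In all 3 every siSHMT2 library was below every siNC library. Those called higher were POLD4, the small subunit of polymerase delta (3.85 ± 0.369 FPKM in siSHMT2 and 2.75 ± 0.0672 FPKM in siNC), the fork protection gene TIMELESS (10.9 ± 0.897 FPKM in siSHMT2 and 7.19 ± 1.46 FPKM in siNC) and the mitochondrial thymidine kinase TK2 (1.95 ± 0.143 FPKM in siSHMT2 and 1.25 ± 0.0854 FPKM in siNC; SD, n = 3 each; limma adjusted p = 0.0402, 0.0422 and 0.0432). None of these 3 was called higher with the replicate block, with TPM, without a filter, without siSHMT2 replicate 1, 2 or 3 or without siNC replicate 3. In the same settings apart from the block, 1 or 2 of the list were called lower.

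The list closest in kind, genes of mitosis, is set beside the replication genes. Of 39 mitotic genes, 36 were tested, and 17 were called lower and 0 higher, with a median log2 fold change of -0.38. The replication genes had 2 lower and 1 higher of 44 and a median of 0.04. Over all tested genes 9.85% were called lower and 6.07% higher. All 36 tested mitotic genes had a negative log2 fold change, against 19 of the 44 replication genes. The mitotic count ran from 6 to 24 lower over the alternatives, and their median log2 fold change from -0.49 to -0.29; the median of the replication genes ran from 0.02 to 0.13. MAD2L1, a spindle checkpoint protein, was 3.60, 3.73 and 3.79 FPKM in siSHMT2, against 16.9, 11.9 and 13.8 FPKM in siNC, and the kinesin KIF2C averaged 18.1 ± 0.471 FPKM in siSHMT2 and 44.4 ± 2.25 FPKM in siNC (SD, n = 3 each), both without overlap (limma adjusted p = 0.000312 and 0.000312). Both lists were chosen with earlier results of these data known, so their contrast is a description. The difference between the lists was not tested.

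**Figure D4:**
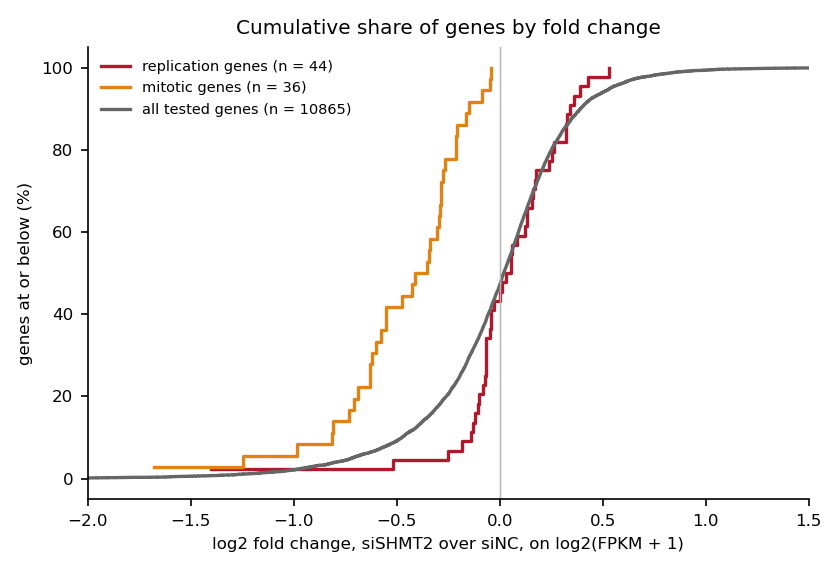
Cumulative share of genes at or below each log2 fold change (siSHMT2 over siNC) for the 44 tested replication genes, the 36 tested mitotic genes and all 10865 tested genes, with the horizontal axis limited to -2 and 1.5. The replication curve crosses 50% at 0.04, near the curve of all genes at 0.02, and the mitotic curve at -0.38.

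The promoters of the lists also held different words. The cell cycle homology region, searched as TTTGAA or TTCGAA on either strand and known from genes of late G2 phase and mitosis, stood in 3 of 39 promoters of replication genes (7.69%), in 25 of 34 of mitotic genes (73.5%) and in 10.4% of promoters of tested genes. E2F words stood in 46.2% of replication promoters and 8.82% of mitotic promoters. CCAAT stood in 56.4% of replication promoters and 67.6% of mitotic promoters, against 37.0% of tested genes. These shares describe the letters of the windows, and whether they bear on the fold changes was not tested.

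**Figure D5:**
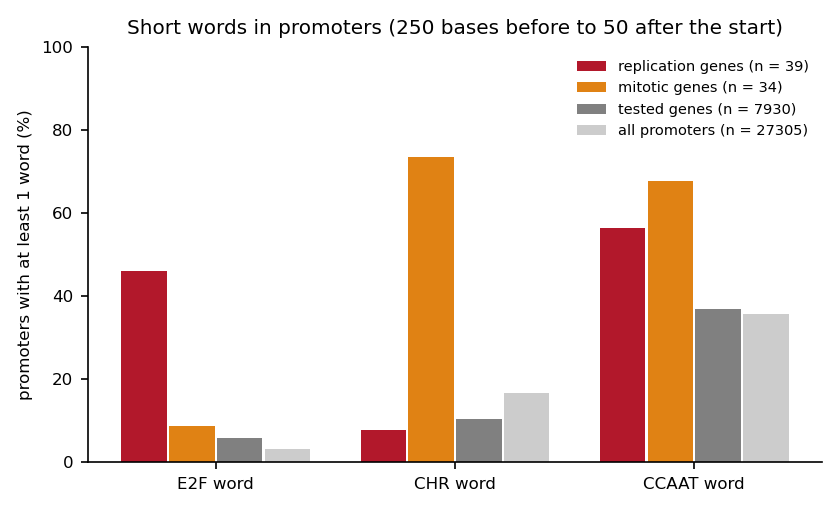
Share of promoters that hold at least 1 E2F, CHR (cell cycle homology region) or CCAAT word on either strand, for replication genes, mitotic genes, tested genes and all promoters of the table. E2F words stand in 46.2% of replication promoters and CHR words in 73.5% of mitotic promoters.

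Transcripts lower in siSHMT2 had earlier been seen to hold GACTTTA or ACTTTAA in the 3′ UTR; these words were chosen on the same fold changes, so the values here describe and do not test. Either word stood in the longest annotated 3′ UTR (GENCODE release 29) of 7 of 44 tested members (15.9%), against 24.6% of 9391 tested genes with a 3′ UTR of at least 50 bases. The median 3′ UTR length was 968 bases in members and 1326 bases in those tested genes. A longer 3′ UTR has more room for a word, and no count here was adjusted for length. Both members called lower, RRM2 and CDC6, held one, as did RFC5, RFC3, RRM2B, ORC2 and GINS2, and CHAF1B held none. The 7 ran from -1.40 (RRM2) to 0.43 (GINS2) in log2 fold change with a median of -0.07; the other 37 had 0 called lower and a median of 0.06. Over all tested genes 553 of 2310 with a word and 409 of 7081 without one were called lower, so nothing particular to the replication genes is read from their 2 of 7. Called higher were 62 of the 2310 and 529 of the 7081, and the median log2 fold changes were -0.13 and 0.06. The sites are shown in RRM2 and CDC6 and, from members not called, in RFC3, ORC2 and GINS2, as stretches of 28 transcript bases with the word in capitals. RRM2 and ORC2 lie on chromosome 2, CDC6 on chromosome 17, RFC3 on chromosome 13 and GINS2 on chromosome 16.

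RRM2, bases 581 to 587 of the 3′ UTR: ttgttaaccaACTTTAAagtcagtcctg

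CDC6, bases 675 to 681: tttgttaagaACTTTAAgtttagggtaa

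CDC6, bases 2203 to 2209: ctgctcttaaGACTTTAgcagttggaac

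RFC3, bases 208 to 214: ataacttagaGACTTTAgagtctaagaa

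RFC3, bases 240 to 246: atcttaatttACTTTAAgcattggttat

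ORC2, bases 2277 to 2283: tgtgtcagtaGACTTTAttattaataaa

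GINS2, bases 1025 to 1031: tttaaaaaaaACTTTAAtttttggccgg

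RFC3, with a site for each word, was 12.0, 13.2 and 10.4 FPKM in the siSHMT2 libraries and 15.0, 9.81 and 13.0 FPKM in the siNC libraries, with overlapping groups. The log2 fold changes of ORC2 and GINS2 were 0.03 and 0.43, without a call. Whether the words bear on RRM2 or CDC6 was not tested. With only siSHMT2 and siNC groups, loss of SHMT2 and other effects of the siRNA cannot be told apart.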

How the data were processed

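RNA of 6 LX2 libraries (3 siSHMT2, 3 siNC) was measured by sequencing. The authors deposited 1 table of FPKM values per gene and library. Reads were aligned with HISAT2 2.0.5 and counted with featureCounts 1.5.0-p3, with hg18 as the named build, per the submitters' processing notes. How the totals behind FPKM and the strand were treated is unknown here. The table's coordinates overlap those of GENCODE release 29 (GRCh38) for 99.99% of shared identifiers, so they are given as GRCh38.

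Multiplied by gene length, 100% of FPKM values above 0 were multiples of the worth of 1 read (within 0.02 of a whole number), which gave the reads; 14487813 to 17495471 was the total used for scaling, 0.957 to 1.13 times the reads. Genes with a mean of at least 1 FPKM were tested with limma 3.58.1 (R 4.3.3) on log2(FPKM + 1) with an intensity trend, with Benjamini-Hochberg adjustment over all genes tested and a threshold of 0.05. The fit was also run on simulated reads with known changes and the same spread setting in both groups. The groups here differ in spread, so nothing is concluded from that run. No list was tested as a set. Promoters (RefSeq) and 3′ UTRs were searched in Python 3.11.15.

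The members and lists were chosen with earlier results of these data known. Genes named are SHMT2, all members, and of 64 other replication genes up to 3 called in each direction by smallest adjusted p; 2 mitotic genes were named after their values were seen. Alternatives covered the pseudocount, filter, scaling, biotype, moderation, weights, replicate block, voom on recovered reads and leaving out each library.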

Additional observations from a re-analysis of the deposited data

How the results depend on the processing

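SHMT2 and RRM2 were called lower in all 16 alternatives. Over all tested genes, 659 were higher and 1070 lower as reported. Higher genes numbered 333 without a filter, 1827 with array weights and 374 with the replicate block, and lower genes 603 without a filter, 618 at a mean of at least 5 FPKM, 620 with TPM, 1976 with array weights and 696 with the replicate block. Leaving out 1 library gave 229 to 729 higher and 498 to 1132 lower genes. Members called higher, 1 as reported, numbered 0 without a filter, 2 at a mean of at least 5 FPKM, 3 with TPM, 3 with FPKM from read sums, 2 with protein-coding genes alone, 7 with array weights (CHAF1B, DUT, GINS2, GINS3, MCM2, POLE2 and RFC2), 2 with voom and 0 to 3 without 1 library. Members called lower, 2 as reported, numbered 1 without a filter, 1 with TPM, 1 with FPKM from read sums, 3 with array weights (CDC6, MCM4 and RRM2) and 1 to 2 without 1 library. For these changes the cause was not tested. By construction, weighting and leaving out libraries change both the fold change and its error, and the filter changes the genes tested and the error. TPM gave a median log2 fold change of 0.11 over all genes and 0.13 over members, instead of 0.02 and 0.04, and left 47.5% of calls lower, instead of 61.9%; with FPKM from read sums it was 49.1%. Of 696 member values under alternatives, 0 changed the direction of a called value, 10 lost and 17 gained a call, and 48 changed sign without a call in either fit, in 16 members. Deviations of libraries with the same number had correlations of -0.02, -0.35 and 0.24 across genes. For libraries with unlike numbers they ran from -0.48 to 0.50. With 3 libraries a group, these values cannot show whether a number marks a shared culture or day. The replicate block kept 1 member higher and 2 lower. Low counts limit GINS4 and PRIM1 most.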

Other observations

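Across all tested genes with a promoter, those with an E2F word had a median log2 fold change of 0.0075 (460 genes, 8.26% called lower and 5.22% higher), against 0.023 without one (10.2% lower and 6.18% higher). Genes with a CHR word had a median of -0.0074 (825 genes, 12.2% lower and 5.70% higher), against 0.025 without one (9.84% lower).

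The spread of replication genes within each group was described without a test. The median coefficient of variation was 7.61% in siSHMT2 and 11.6% in siNC, and 35 of the 44 tested members had the larger value in siNC. Over all tested genes these medians were 8.92% in siSHMT2 and 16.2% in siNC. The median member, relative to its siNC mean on the log2(FPKM + 1) scale, stood at 0.03, 0.07 and 0.03 in the siSHMT2 libraries and 0.07, -0.05 and 0.01 in the siNC libraries, at overlapping levels.

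Some genes of nucleotide supply outside the 45 were not called. TYMS, the thymidylate synthase, was 5.23, 5.16 and 3.81 FPKM in siSHMT2, against 11.7, 4.05 and 6.40 FPKM in siNC (limma adjusted p = 0.361). The siNC library of replicate 1 stood out for TYMS. SAMHD1, which degrades deoxynucleotides, averaged 11.6 ± 0.774 FPKM in siSHMT2 and 13.6 ± 0.767 FPKM in siNC (SD, n = 3 each; limma adjusted p = 0.195). These 2 genes were named after their values were seen.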
